A study of Mus musculus with 12 samples.

Results

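The 10 genes described here encode the constant regions of mouse immunoglobulin and the proteins that assemble IgA and carry it across the gut epithelium. They were chosen by symbol from the 53801 genes of the count table: Igha, Ighm, Ighd, Ighg1, Ighg2b, Ighg3, Igkc, Jchain, Pigr and Mzb1. All 10 were also present in both tables of normalized counts. Total RNA was sequenced from the colon and the whole blood of 6 male C57BL/6 mice, which the study's methods give as 8 weeks old. By the study's methods, the UC group (ulcerative colitis) received 1.5% dextran sulfate sodium (DSS), a polysaccharide that injures the colonic epithelium, in drinking water for 7 days. The control group drank the same water without DSS, and every mouse was killed on day 8. The sample labels give mice 1, 2 and 4 as the 3 UC mice and mice 7, 8 and 9 as the 3 controls. A doubt about these labels is set out below. Each of the 4 groups, UC colon, control colon, UC blood and control blood, held 3 libraries, and the study picked these 6 mice from a larger set by their disease activity index. The colon RNA came from whole tissue and the blood RNA from all blood cells, so fewer antibody-secreting cells and less RNA per cell cannot be told apart.

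An antibody is built from paired heavy and light chains, and the heavy-chain constant gene sets its class. Resting B cells splice the same transcript to IgM (Ighm) and IgD (Ighd), and class switching places a downstream gene, such as Ighg1, Ighg2b or Ighg3 for IgG or Igha for IgA, next to the rearranged variable segment. Igkc encodes the constant region of kappa light chains and the Iglc genes that of lambda chains. Plasma cells of the gut lining secrete IgA that the joining chain (Jchain) links into dimers, and Mzb1, a chaperone of the endoplasmic reticulum, aids that assembly in B and plasma cells. Epithelial cells take up the dimers at their base through the polymeric immunoglobulin receptor (Pigr) and release them into the gut lumen.

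The difference between the classes that Jchain can join and the others lies at the very end of the coding sequence. The last 60 coding bases of the annotated transcript without membrane exons are shown for the 6 heavy-chain genes, which lie in a row on the minus strand of chromosome 12 (GRCm38, GENCODE vM21). The capitals mark the second codon from the end, which in the secreted forms of IgA and IgM is a cysteine codon that bonds to Jchain.
Igha, chr12:113258768-113258827: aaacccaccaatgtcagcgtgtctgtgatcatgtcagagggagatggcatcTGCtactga
Ighm, chr12:113420867-113420926: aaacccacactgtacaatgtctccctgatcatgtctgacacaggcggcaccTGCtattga
Ighd, chr12:113409578-113409637: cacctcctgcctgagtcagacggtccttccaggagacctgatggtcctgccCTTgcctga
Ighg1, chr12:113328976-113329035: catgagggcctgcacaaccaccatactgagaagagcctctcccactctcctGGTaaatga
Ighg2b, chr12:113306389-113306448: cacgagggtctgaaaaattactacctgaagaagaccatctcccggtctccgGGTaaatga
Ighg3, chr12:113359665-113359724: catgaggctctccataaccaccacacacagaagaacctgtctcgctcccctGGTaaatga
Igha and Ighm were identical at 41 of these 60 positions, and Igha matched the IgG genes at 13 or 14. The IgG genes matched each other at 41 to 48 positions. Over the whole coding sequence without membrane exons, the longest run of identical bases between Igha or Ighm and any other of these genes was 15 bases. Ighg1, Ighg2b and Ighg3 shared runs of 31 to 41 bases with one another, and Ighg2b shared 78 bases with Ighg2c, so counts of the IgG genes are uncertain to the extent that reads within such runs were divided between copies.

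Pigr lies on chromosome 1 at 130826684 to 130852249 (plus strand). The 120 bases before its annotated start, taken from the RefSeq promoter table (GRCm38.p6), are shown because Pigr had the largest difference between the tissues among the 10 genes, and the capitals mark a CACGTG E-box, a motif that is the same on both strands.
Pigr, chr1:130826564-130826683: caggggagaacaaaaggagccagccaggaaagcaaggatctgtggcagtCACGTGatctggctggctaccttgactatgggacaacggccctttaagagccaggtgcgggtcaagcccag
The motif began 71 bases before the start, and 7.15% of the 32851 promoters of 300 bases in that table held it. The Jchain promoter window held no CACGTG, and neither window held the octamer ATGCAAAT on either strand, which 1.74% of all promoters held. The table held no promoter for the immunoglobulin constant genes.

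Totals of the colon libraries were 69181049 to 103662306 counts and those of the blood libraries 80867247 to 142536804, of which the 6 heavy-chain genes took 8417 to 46880 counts per library. Among the labels of each sample, the tissue entry and the source entry were opposite. The tissue entry was used and matched the markers, since all 8 epithelial genes tested were higher in the libraries called colon and all 4 red cell genes tested were higher in those called blood. The disease labels did not follow S100a8, a neutrophil gene that rises in inflamed colon. Its normalized counts in the colon were 5370, 33.1 and 22.3 in mice 1, 2 and 4 labelled UC and 1888, 75.6 and 13337 in mice 7, 8 and 9 labelled control. The highest and the lowest of these values thus belonged to control and UC, with an overlap of the groups. In the blood the normalized counts of S100a8 were 88578, 14299 and 11465.5 in mice 1, 2 and 4 and 37179, 8642 and 101913 in mice 7, 8 and 9. In both tissues mice 1, 7 and 9 thus lay above mice 2, 4 and 8, across the labels. All 6 genes of the neutrophil list split the same way. The groups are called by their labels throughout. Whether these labels match the treatment of each mouse could not be settled from the files, so values for UC against control compare labels.

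Within each tissue the genes differed widely in level. As normalized count per kb of exon, Pigr led in the colon at 37965 to 57965, above every other member in every library. Igkc (6493 to 32488 per kb), Igha (2804 to 13115), Jchain (1108 to 6181) and Ighm (228.5 to 2174) followed, and the range of each overlapped that of its neighbour. The remaining 5 genes, Ighd, Ighg2b, Mzb1, Ighg1 and Ighg3, were below 479 per kb in every colon library. In the blood Ighm led at 5886 to 10171 per kb, above all other members in every library. Igkc (1565 to 3027) and Ighd (1350 to 1751) overlapped each other. Mzb1 (139 to 447) and Igha (159 to 741) also overlapped, and Jchain (44.3 to 103) lay below both. Pigr was lowest in the blood by its median, at 1.57 to 10.8 per kb, within the range of the rarer IgG genes.

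**Figure D1:**
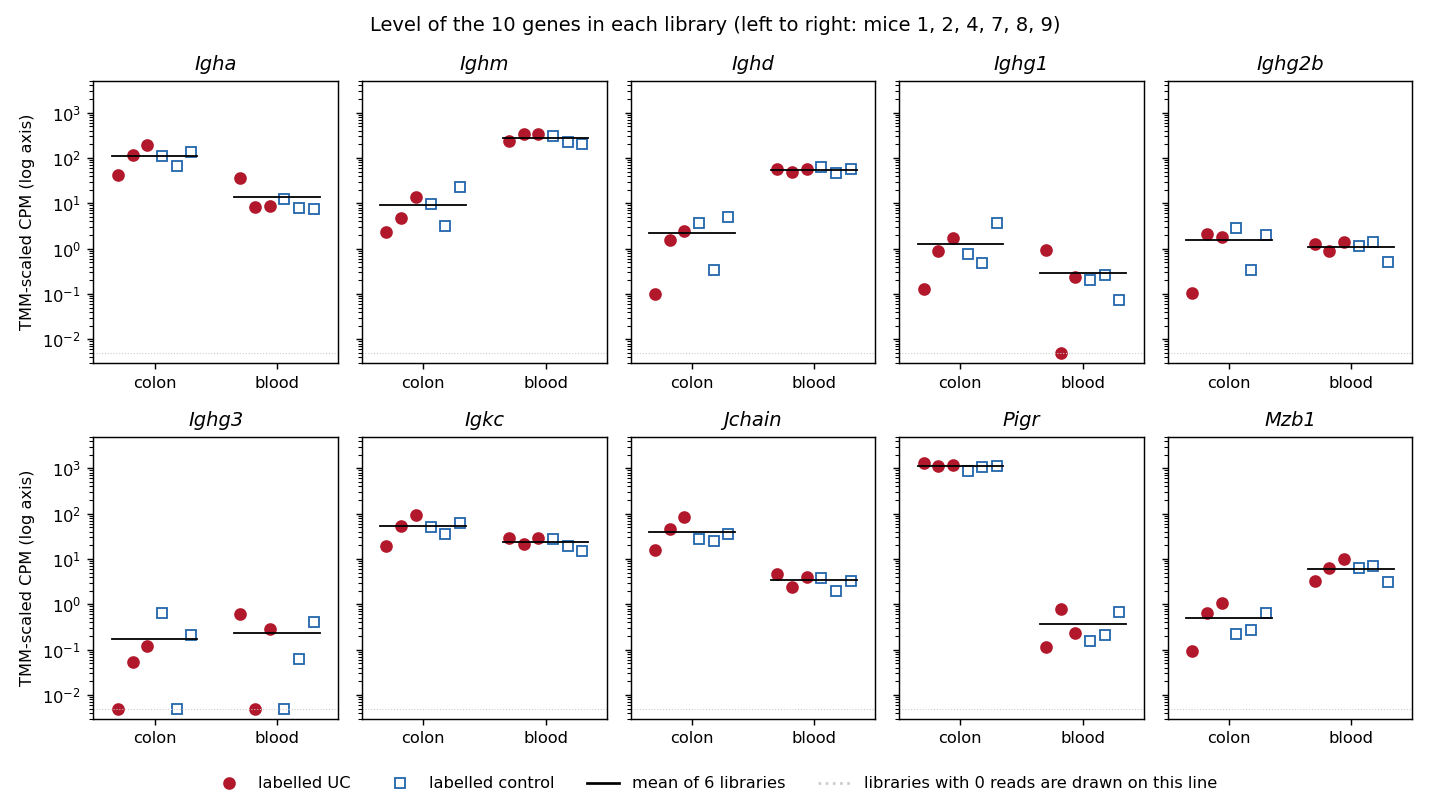
Level of each of the 10 genes in the 12 libraries as CPM scaled by TMM over both tissues (log axis), with the 6 colon libraries on the left of each panel and the 6 blood libraries on the right. Filled circles are libraries labelled UC, open squares those labelled control and the line is the mean of 6. Igha, Jchain and Pigr were higher in every colon library than in any blood library, Ighm, Ighd and Mzb1 were lower in every one, and the disease labels overlapped in most panels.

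Colon and blood differed in the class of antibody message they held. For values set across tissues, counts were scaled by TMM over all 12 libraries and given as CPM, counts relative to the scaled total of the library, since the deposited normalized tables were scaled separately for each tissue. The colon RNA was depleted of ribosomal RNA and the blood RNA of ribosomal and globin RNA, so tissue and kit cannot be told apart. Between the tissues 58.5% of all 23258 genes tested passed the threshold, which asks for an adjusted p no higher than 0.05 and a change of more than 1 on the log2 scale, 37.7% higher in the colon and 20.8% lower. Of the 10 members, 8 passed, 5 higher and 3 lower. The ranges of 6 members did not overlap between tissues, 3 higher and 3 lower in the colon, beside 53.5% of all genes, 34.3% higher and 19.2% lower. Their adjusted p-values are from edgeR's quasi-likelihood test with Benjamini-Hochberg adjustment over all genes tested. The median log2FC of all genes was 0.46 with TMM scaling and 2.57 with scaling by library size alone, where 91.1% of called genes were higher in the colon against 64.4% in the main fit. Changes are therefore also given relative to that median.

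Igha read 41.5, 116 and 191 CPM in the UC colon, 113, 65.6 and 136 in the control colon, 36.2, 8.41 and 8.69 in the UC blood, and 12.4, 7.85 and 7.70 in the control blood. Every colon library exceeded every blood library, although the blood of mouse 1 came close to the colon of the same mouse. The log2FC was 3.10 (SE 0.48, adjusted p = 0.000165, n = 6 per tissue), or 2.64 above the median of all genes.

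Jchain was higher in the colon too, with a log2FC of 3.48 (SE 0.39, adjusted p = 1.48e-05). Its CPM were 15.5, 44.6 and 84.8 in the UC colon and 28.2, 24.6 and 35.4 in the control colon. The blood values were 1.99 to 4.76, below every colon library.

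Pigr, the epithelial carrier, stood at 1293, 1121 and 1176 CPM in the UC colon and at 871, 1054 and 1118 in the control colon. In the blood 6 to 45 counts were found per library, or 0.116 to 0.770 CPM. The log2FC was 11.60 (SE 0.63, adjusted p = 8.14e-08). The epithelial list moved with it, with summed normalized counts of 931238 to 1323990 in the colon and of 185 to 408 in the blood. The part of epithelial cell number in the Pigr level was not tested.

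Ighm and Ighd lay the other way. Ighm was at 2.39, 4.87 and 13.9 CPM in the UC colon and at 9.50, 3.15 and 22.7 in the control colon, against 201 to 338 in the blood. Its log2FC was -4.89 (SE 0.56, adjusted p = 1.74e-05). Ighd had 0.0998 to 5.04 CPM in the colon and 45.8 to 62.2 in the blood, with a log2FC of -4.73 (SE 0.76, adjusted p = 0.000206). Neither gene's ranges overlapped between tissues. All 10 B cell markers tested, Ms4a1 and Cd79b among them, were lower in the colon with them, at a median log2FC of -5.52, and by library size alone 8 of them were called. Their summed normalized counts were 370 to 5797 in the colon and 25869 to 48808 in the blood, on scales set separately, and the part of B cell number in Ighm and Ighd was not tested.

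Between the tissues Mzb1 did not go with Jchain. It was lower in the colon, at 0.0945 to 1.04 CPM against 3.06 to 9.88 in the blood, with a log2FC of -3.63 (SE 0.57, adjusted p = 0.000167). Over the 6 colon libraries alone, log2 CPM of Mzb1 and Jchain had a Pearson r of 0.94, on 18 to 231 counts of Mzb1. In GENCODE vM21 Mzb1 overlaps a second annotated gene on the same strand, to which no row of the count table was matched.

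The IgG genes were rare in both tissues. Ighg1 had 0.131 to 3.60 CPM in the colon against 0 to 0.925 in the blood, where mouse 2 had 0 counts. Its log2FC of 2.20 (SE 0.90) passed the test only narrowly (adjusted p = 0.0466). With the mouse as a replicate block the log2FC was 2.33 and the call was lost (adjusted p = 0.111), and it was lost as well without mouse 2, 4, 7 or 9, with a log2FC of 1.33 without mouse 9. Over all its alternatives the adjusted p of Ighg1 lay between 0.000495 and 0.249. Ighg2b (log2FC 0.46, SE 0.65, adjusted p = 0.547) and Ighg3 (log2FC -0.77, SE 1.26, adjusted p = 0.599) did not pass. Ighg2b was at the median of all genes with TMM scaling and 0.11 above it by library size alone, where its log2FC of 2.68 was called (adjusted p = 0.00226 by edgeR, against 0.229 to 0.956 under its other alternatives). Ighg3 had 0 to 89 counts in the colon and 0 to 32 in the blood, and its log2FC turned to 1.26 by library size alone, to 0.023 without mouse 1 and to 0.54 without mouse 9.

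Igkc overlapped between tissues, at 19.2 to 94.3 CPM in the colon and 15.1 to 29.4 in the blood, the colon of mouse 1 being the lowest. Its log2FC was 1.17 (SE 0.33, adjusted p = 0.00851), 0.71 above the median of all genes. Without mouse 4 or mouse 9 the log2FC fell below the threshold of 1, to 0.91 and 0.99.

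**Figure D2:**
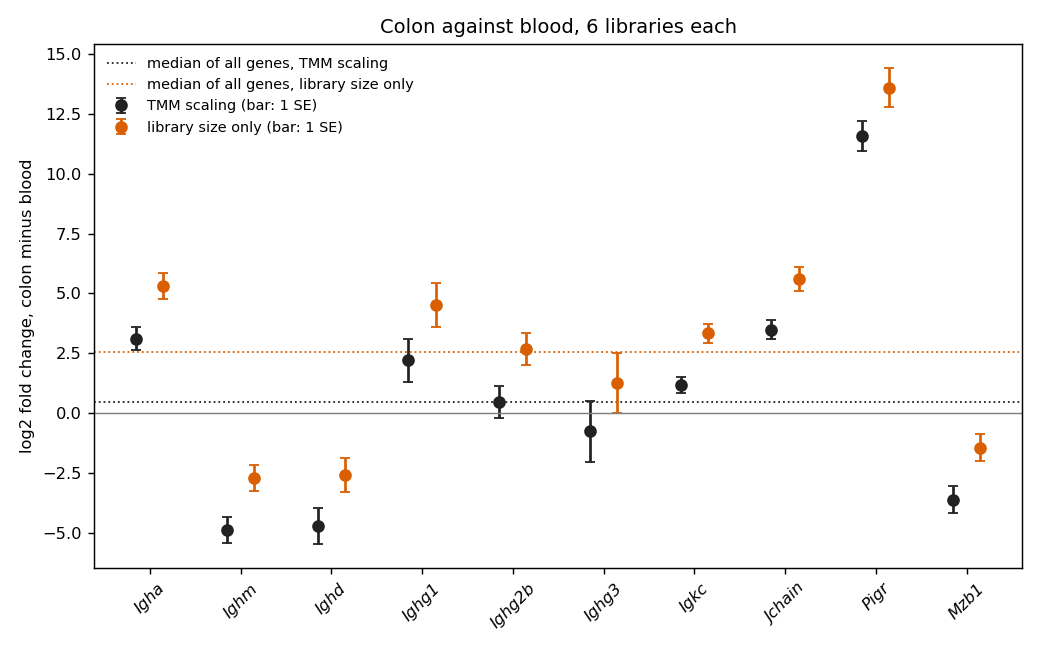
Log2 fold change of each gene, colon minus blood, with TMM scaling (black) and with library size alone (orange). Points are estimates over 6 libraries per tissue, bars are 1 SE and dotted lines mark the median of all genes tested under the same scaling, 0.46 and 2.57. Pigr, Jchain and Igha lay above that median and Ighm, Ighd and Mzb1 below it with either scaling.

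Shares within a library do not depend on how libraries are scaled, so the class make-up was also compared as each gene's part of the counts per kb over the 6 heavy-chain genes. In the colon Igha made up 91.7%, 90.5% and 87.6% in mice labelled UC and 83.03%, 91.9% and 75.1% in mice labelled control. In the blood it made up 7.83%, 1.51% and 1.55% and then 2.36%, 1.998% and 2.07%. The mean was 86.7% ± 6.57 in the colon and 2.89% ± 2.44 in the blood (SD, n = 6 each). The difference of 83.8 points gave p = 0.00217 in a two-sided exact permutation test, the smallest p that 6 against 6 allows (adjusted p = 0.00866 over 24 tests of shares and ratios). Sign flips within mouse, the test with the replicate block, gave an exact p of 0.0313, again the smallest possible, and an adjusted p of 0.125, so the call was lost. With 6 pairs and 24 tests the adjusted p could not go below 0.0938. The same exact and adjusted p held with the block for Ighm, Ighd and the ratios of Jchain, Igkc and Mzb1 given next, and in all 6 mice these measures differed in the direction stated.

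Ighm held the place in the blood that Igha held in the colon. Its share was 80.3% ± 4.44 in the blood and 9.30% ± 4.47 in the colon (SD, n = 6 each), with no overlap (exact permutation p = 0.00217, adjusted p = 0.00866). Ighd followed at 16.4% ± 2.95 in the blood and 2.02% ± 1.55 in the colon, with the same exact p and adjusted p. The ratio of Ighd to Ighm did not differ detectably between the tissues. Its mean log2 was -2.58 ± 1.19 in the colon and -2.31 ± 0.33 in the blood (exact permutation p = 0.649), and the spread was wider in the colon, where the ratio of mouse 1 was -4.59.

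The IgG members Ighg1, Ighg2b and Ighg3 together took 0.530% to 3.26% of the heavy-chain counts per kb in the colon and 0.157% to 0.622% in the blood. Ighg2c, which is not a member, was left out of this share. It had 0 to 72 counts in a colon library and 0 to 9 in a blood library. The ranges overlapped through the colon of mouse 1. The difference of 1.69 points gave an exact permutation p of 0.00433 (adjusted p = 0.0148), and with the replicate block the exact p was 0.0625 (adjusted p = 0.214). Without mouse 2, 4, 7, 8 or 9 the adjusted p was 0.0544 and the call was lost, while without mouse 1 it was 0.0272 by the same exact test. For Igha, Ighm and Ighd counting error was small beside the differences between tissues. The widest 95% Wilson interval of a share of these genes in a library spanned 1.34 points, which covers counting error only. No such interval was taken for the IgG genes.

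**Figure D3:**
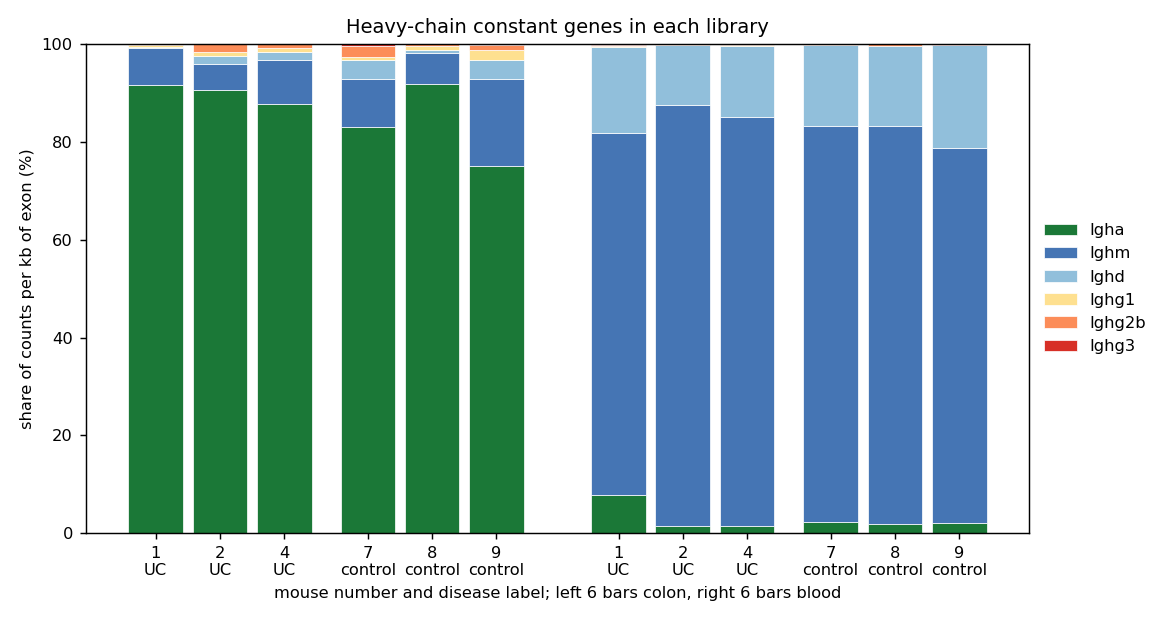
Share of each heavy-chain constant gene in the counts per kb of exon over the 6 genes, 1 bar per library, with colon on the left and blood on the right. Igha filled 75.1% to 91.9% of every colon bar, and Ighm filled 73.9% to 86.0% of every blood bar.

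The other parts of the secreted molecule were set against the heavy chains per kb. The log2 ratio of Jchain to Igha plus Ighm, the chains it joins, was -1.62 ± 0.40 in the colon and -6.84 ± 0.52 in the blood (SD, n = 6 each), a difference of 5.22. The log2 ratio of Mzb1 to Jchain was -5.46 ± 0.57 in the colon and 1.81 ± 0.92 in the blood, a difference of -7.27. Neither ratio overlapped between the tissues (exact permutation p = 0.00217 and adjusted p = 0.00866 for each). Relative to Jchain the colon thus held less Mzb1 than the blood, and relative to Igha plus Ighm it held more Jchain. In the blood that sum was mostly Ighm, at 5886 to 10171 normalized counts per kb beside 159 to 741 for Igha. Jchain was at 44.3 to 103 there. In the colon Igha was at 2804 to 13115 and Jchain at 1108 to 6181. The ratio of Jchain to Igha alone was not tested. Counts per gene do not separate membrane from secreted Ighm.

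The light chains did not give the same picture from their constant and their variable parts. The log2 ratio of Igkc to the heavy chains was 1.06 ± 0.18 in the colon and -2.03 ± 0.28 in the blood (exact permutation p = 0.00217, adjusted p = 0.00866). By constant genes, the Iglc genes took 7.98% to 24.9% of the light-chain counts per kb in the colon and 54.2% to 80.4% in the blood. By variable segments, looked at after these values were seen and hence given with no test, lambda (Iglv) took 5.79% to 20.3% of the light-chain counts in the colon and 14.6% to 33.2% in the blood. Counts of kappa variable segments (Igkv) per count of Igkc were 0.668 to 0.974 in the colon and 2.18 to 3.08 in the blood. Counts of Iglv segments per count of the Iglc genes lay the opposite way, with 0.692 to 0.896 in the colon and 0.314 to 0.373 in the blood. Constant and variable parts thus differed on which light chain was more abundant in the blood, while light-chain over heavy-chain variable counts were alike at 1.01 to 1.51 in the colon and 1.12 to 1.29 in the blood.

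Igkc lies at 70726435 to 70726966 on the plus strand of chromosome 6, where the long noncoding gene Gm30211 overlaps it on the same strand. That gene had 5 to 60 counts in the colon and 251 to 694 in the blood, beside 3647 to 20954 and 789 to 1968 counts of Igkc. Iglc2 and Iglc3 shared a run of 79 identical coding bases, so the split of counts between these genes is uncertain. The longest run that Igkc shared with any Iglc gene was 8 bases. The part of the Gm30211 overlap in the low Igkc of the blood was not tested.

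Within lambda the colon libraries differed from each other and the blood libraries did not differ as much. Iglc3 was 78.0% of the Iglc counts per kb in the colon of mouse 2 and 8.36% to 27.4% in the other colon libraries, where Iglc1 led with 51.3% to 84.6%. In the blood Iglc2 led in every library, with 38.0% to 45.7%.

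**Figure D4:**
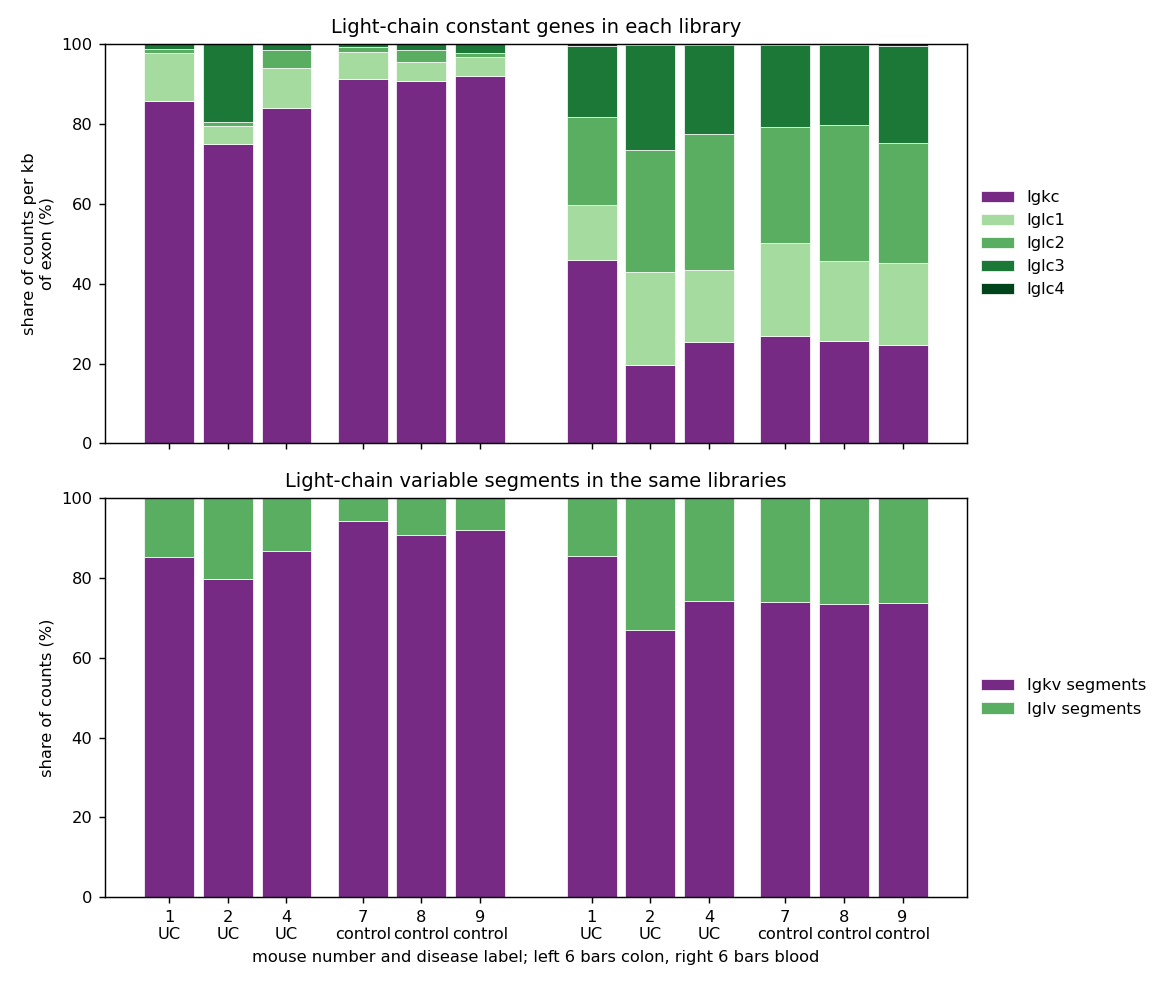
Light-chain make-up of each library, with colon on the left and blood on the right. The upper panel gives shares of the constant genes in counts per kb of exon and the lower panel shares of the kappa and lambda variable segments in counts. In the blood the Iglc genes took 54.2% to 80.4% above and the Iglv segments 14.6% to 33.2% below.

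The groups labelled UC and control were compared within each tissue, as in the study. None of the 10 members passed in the colon or in the blood by edgeR's quasi-likelihood test, and none passed with DESeq2, limma-voom or any other alternative. At an unadjusted p under 0.05 none of the 10 passed in either tissue. The background was also near 0, with 0.0045% of 22238 genes called in the colon, where 313 had an unadjusted p under 0.05, and 0% of 16759 in the blood, where 241 had. In the colon the groups of 1 of the 10 members did not overlap, beside 5.41% of all genes, 2.99% higher and 2.41% lower in libraries labelled UC. In the blood this held for 0 of the 10, beside 6.5% of all genes, 3.03% higher and 3.48% lower.

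In the colon Igha had 7481, 21224 and 34990 normalized counts in mice labelled UC and 19822, 11717 and 24542 in mice labelled control. The groups overlapped, with the highest and the lowest value both labelled UC, and the log2FC was 0.17 (SE 0.55, adjusted p = 0.999948 by edgeR). Jchain had 2788, 8187 and 15557 against 4941, 4402 and 6387, with a log2FC of 0.74 (SE 0.56). Pigr had 233310, 205580 and 215582 against 152809, 188287 and 201750, so that all 3 values labelled UC lay above all 3 labelled control. The log2FC of Pigr was 0.26 (SE 0.20, adjusted p = 0.999948 by edgeR).

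Ighm had 431, 893 and 2555 against 1667, 562 and 4100 normalized counts in the colon, with a log2FC of -0.71 (SE 0.85). Ighd had 18.0, 291 and 459 against 658, 59.2 and 909, with a log2FC of -1.09 (SE 1.23). For both genes the range within each label was wider than the difference between the means of the labels. Igkc (0.18), Mzb1 (0.67), Ighg1 (-0.80), Ighg2b (-0.37) and Ighg3 (-2.27) had log2FC with SE from 0.55 to 1.70.

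In the blood Igha had 1978, 477 and 478 normalized counts in mice labelled UC and 665, 440 and 424 in mice labelled control. Its log2FC of 0.93 (SE 0.56, adjusted p = 0.9998 by edgeR) rested on mouse 1, since without that mouse it was -0.09. Ighm (log2FC 0.34, SE 0.27) had 13197, 19183 and 18230 against 16067, 12642 and 11101, and Ighd (0.02, SE 0.21) had 3172, 2782 and 3184 against 3327, 2566 and 3080. Those values overlapped between the labels. The other 7 members had log2FC from 0.12 to 1.10, with groups that overlapped for each.

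No share or ratio passed its test between the labels, and the ranges of all 16 overlapped. The Igha share in the colon was 90.0% ± 2.08 in mice labelled UC and 83.4% ± 8.42 in mice labelled control (SD, n = 3 each, exact permutation p = 0.4), and the remaining 15 shares and ratios of both tissues had exact p-values of 0.2 to 1, where 3 against 3 cannot go below 0.1. The difference of the UC effect between colon and blood, tested as an interaction over the 12 libraries, called 0 of the 10 members against 0.0043% of 23258 genes, 793 of which had an unadjusted p under 0.05. The lowest unadjusted p among the members was 0.231, for Ighg3.

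Mice differed more than labels did. In the colon the libraries of mice 1 and 8 had the lowest Igha, Ighm, Ighd, Ighg2b and Igkc of their label, and across labels the lowest Ighd, at 18.0 and 59.2 normalized counts. The summed B cell list was lowest in these same colon libraries, at 370 and 545, against 2135 to 5797 in the others, and the part of B cell number in these levels was not tested. Ighg3 had 0 counts in both. Igha was lower there by a smaller factor than Ighd, and their Igha shares of 91.7% and 91.9% were the highest of all. Pigr was highest in mouse 1, at 233310, and second lowest in mouse 8, at 188287. As a description over 6 libraries, which share depth and tissue sampling, log2 CPM of Igha and Igkc in the colon had a Pearson r of 0.99, Igha and Jchain 0.92, and Igha and Pigr -0.25.

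**Figure D5:**
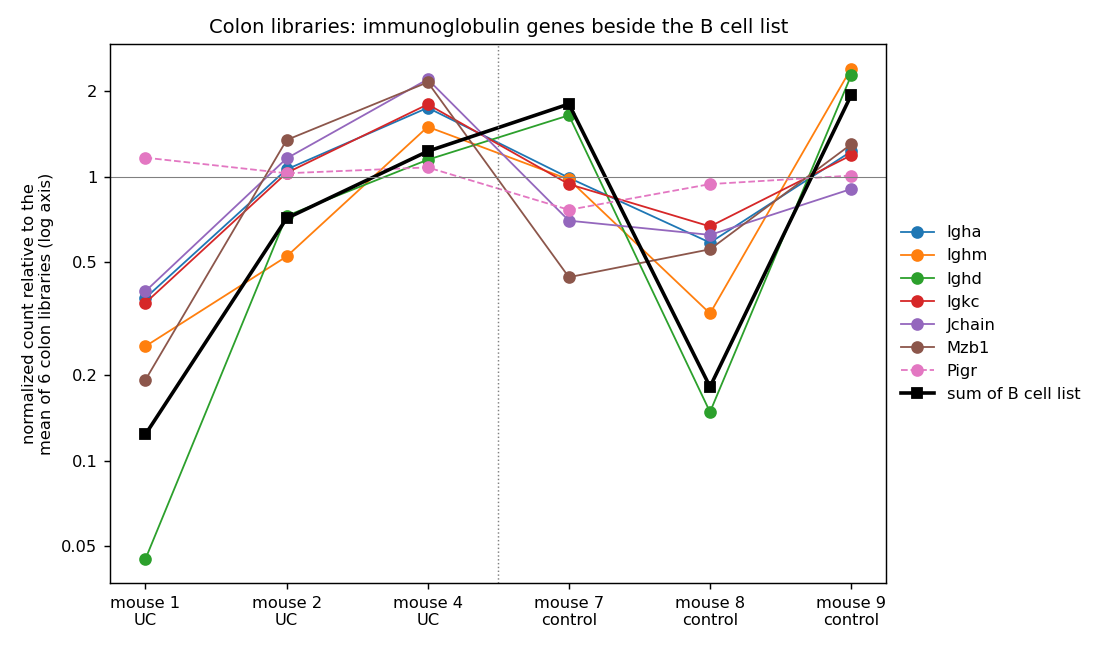
Normalized count of 7 of the genes in each colon library, divided by the gene's mean over the 6 libraries (log axis), beside the summed B cell list (black squares). Mice 1, 2 and 4 were labelled UC and mice 7, 8 and 9 control. Ighd and the B cell list were lowest in mice 1 and 8, while Pigr changed little.

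The other genes of antibody secretion are given by list, with log2FC of colon over blood. Counts called are to be read beside all genes tested, of which 58.5% were called, 37.7% higher and 20.8% lower. With scaling by library size alone, 17887 of the 23258 genes were called higher and 1757 lower. Of 14 genes of the plasma cell programme, 6 were higher and 5 lower in the colon, with a median log2FC of 0.50 beside 0.46 for all genes. By library size alone 9 were higher and 3 lower. Sdc1, a proteoglycan of plasma cells that epithelium also carries, was higher by a log2FC of 6.43, with Cd38 at 2.97. The folding factors Fkbp11 (1.75), Txndc5 (1.73) and Creld2 (1.44) and the repressor Prdm1 (1.22), which drives plasma cell fate, were higher too. Among colon libraries Prdm1, Cd38, Fkbp11 and Creld2 were highest in mice 1, 7 and 9, whereas Igha was lowest in mouse 1. Prdm1 had 997, 1182 and 1402 normalized counts in those mice and 184 to 639 in the others. Txndc5 did not split this way, and Sdc1 was lowest in those mice. The part of other cells in these genes was not tested. The regulators Irf4 (-3.41) and Pou2af1 (-5.02) were lower, as was Ell2 (-2.39), an elongation factor. Slamf7 (-2.12), a surface receptor, and Tent5c (-11.33), a poly(A) polymerase, were lower as well. Tent5c had 861833 to 3014100 counts in a blood library, where all red cell genes tested were also higher, and the part of red cells in it was not tested. Xbp1, Tnfrsf17 and Derl3 did not pass. Prdm1 was no longer called without mouse 4, 7 or 9 (log2FC 1.13, 1.11 and 1.25). By library size alone Ell2 and Slamf7 were no longer called, and Slamf7 turned to 0.019.

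Of 9 genes of plasma cell homing, 3 were higher and 4 lower, with a median log2FC of -0.69. Ccl28, the epithelial chemokine that draws IgA-secreting cells, had 4487 to 24480 counts in the colon and 0 to 6 in the blood. Madcam1, the gut vessel ligand of the integrin that these cells bear, had 11 to 956 counts in the colon and 0 in every blood library, and Cxcl12 was higher by a log2FC of 4.85. The chemokine receptors Ccr9 (-4.05) and Cxcr4 (-4.41) and the integrin chains Itga4 (-4.69) and Itgb7 (-5.36) were lower in the colon. The blood RNA came from all blood cells, and all 10 B cell markers were lower in the colon as well. Which cells carried these receptors and integrins was not tested. Ccr10, the receptor of Ccl28, did not pass (log2FC -0.69, SE 0.85) and overlapped between tissues.

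Of 12 tested genes of class switching and IgA induction, 2 were higher and 5 lower, with a median log2FC of -0.30. By library size alone 7 were higher and 4 lower, beside 17887 higher and 1757 lower of all 23258 genes. Aldh1a2, which makes the retinoic acid that favours IgA switching, had 47 to 981 counts in the colon and 0 to 3 in the blood, and Smad3, a mediator of TGF-beta, was higher by 1.23. Tnfrsf13b (-4.77) and Tnfrsf13c (-5.40), receptors of B cell survival factors, Cd40 (-3.47), Cd40lg (-7.60) and Tgfb1 (-2.79) were lower, Tgfb1 no longer being called by library size alone.

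Of the 6 receptors of antibody, 2 were higher and 4 lower, with a median log2FC of -4.30, and by library size alone 5 passed. The IgA and IgM receptor Fcamr (5.59) and the neonatal Fc receptor Fcgrt (1.29) were higher in the colon. Fcamr had only 22 to 107 counts in a colon library and 0 to 10 in a blood library, and its CPM overlapped between tissues. The B cell receptors Fcmr (-5.32), Fcer2a (-5.84) and Fcrla (-4.75) were lower, as was Fcrl5, which lost its call by library size alone. Of the other immunoglobulin constant genes 4 of 8 were tested and 3 were lower in the colon, Iglc2 (-4.33), Iglc1 (-2.11) and Iglc3 (-3.19), and by library size alone Iglc1 and Iglc3 lost their calls. Between the disease labels, 0 genes of any of these lists passed in either tissue, beside the background of 0.0045% and 0% given above.

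The genes whose pattern over the 6 libraries was most like that of a member were found by Pearson r of log2 CPM, members left out. For Igha in the colon, the variable segment Igkv10-96 came first (r = 0.99) among 15884 genes, followed by Gm11793, Rapgef6, Ppt1 and Bola3 (r = 0.97 to 0.98), and 5 of the first 20 were immunoglobulin segments. For Ighm in the colon these were Rpl36al, Calhm5, Mrpl22, Mrpl43 and Sub1 (r = 0.96 to 0.97), and for Pigr they were Sbk1, Gpr180, Tmub1, Gm13736 and Tbccd1 (r = 0.96 to 0.99). For Ighm in the blood they were Ccdc115, Eif2b4, Tm9sf1, Man2a2 and Mlst8 (r = 0.99) among 11206 genes. Immunoglobulin segments among the first 20 numbered 2 for Ighm and 0 for Pigr in the colon, and 0 for Ighm in the blood. The share of such segments among all genes compared was not taken. These likenesses are a description with no p.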

How the data were processed

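Libraries were grouped by the tissue and disease state that the labels give and numbered by mouse, and each replicate was a separate mouse. Per the study's methods the authors trimmed reads, mapped them to GRCm38 with STAR and quantified Ensembl genes with StringTie without setting a strand. The deposited counts derive from transcript coverage and are whole numbers, so coverage of overlapping or similar genes may have been divided between them. In the deposited normalized tables (unit signal) the authors divided the count by 1 DESeq2 size factor per library, separately for each tissue.

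Counts were fitted in R 4.3.3 by edgeR 4.0.16 (TMM, filterByExpr, glmQLFit and glmQLFTest, Benjamini-Hochberg adjustment), each tissue alone for UC against control and all 12 libraries with 4 group means for tissue and interaction. The interaction was called on its adjusted p alone. SE is the log2FC over the square root of F. On simulated data with 200 genes changed 4-fold, the fits recovered 100% in the colon (22402 genes) and 99.5% in the blood (16813). They recovered 100% between tissues (22429) and 96% for the interaction (23219), and false calls were 6, 2, 0 and 7 in that order. The simulated replicates varied less than the data, whose biological coefficient of variation was 0.503 in the colon and 0.417 in the blood. Over both tissues it was 0.499. Changes were placed only in genes with ample counts, so these recoveries are not the power to detect a change in these data. DESeq2 1.42.0, limma-voom 3.58.1, other scalings and filters, the replicate block and leaving out each mouse were alternatives. Shares used counts per kb of exon in GENCODE vM21, which held 53706 of the 53801 identifiers, over the 6 heavy-chain genes (the plan miscounted them as 7), and were compared by two-sided exact permutation tests.

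The members and lists were chosen with earlier results of these data known, and 88 of 91 list genes were found. All members and at most 5 called genes a list, those with the lowest adjusted p, were to be named, with the 5 genes most alike to Igha, Ighm and Pigr among those with a mean of at least 100 counts. Prdm1, Cd38, Fkbp11, Txndc5, Creld2, Slamf7, Xbp1, Tnfrsf17, Derl3, Madcam1, Cxcl12, Aldh1a2, Smad3, Fcrl5, Ccr10, Gm30211, Ighg2c and the variable segments were named after their values were seen. Colon and blood of a mouse number came from the same animal, which pairs them. Their deviations from group means over 15802 genes correlated with r of 0.00476 to 0.227. Some genes of the lists are not reported here by themselves.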

Additional observations from a re-analysis of the deposited data

How the results depend on the processing

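The count of members called was 0 of 10 between the disease labels in the colon, in the blood and in the interaction under every alternative run, 7 to 9 of 10 between tissues under the others and 6 to 8 when a mouse was left out. The replicate block removed the call of Ighg1 (adjusted p = 0.111), left the other 7 members called, and left 0 members called in the interaction. On adjusted p-values it left 0 of the 7 shares and ratios called between tissues, with an adjusted p of 0.125 for the Igha share, a difference that stayed at 83.8 points, and of 0.214 for the IgG share. Without mouse 1 all 7 were called, and without any other mouse 6 were, the IgG share being lost. By library size alone Ighg2b gained a call (log2FC 2.68), Ighg3 turned to 1.26, Slamf7 to 0.019, and the UC effect on Igkc between tissues to 0.10. With limma-voom the UC against control log2FC of Igha (-0.027) and Igkc (-0.070) in the colon and of Pigr (-0.18) in the blood changed sign. The cause was not tested.

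Directions between the disease labels were not stable when a mouse was left out, and none of these values was called. In the colon the log2FC ranged from -0.39 to 0.58 for Igha, from -1.68 to 0.18 for Ighm, from -1.64 to 0.56 for Ighg1, from -0.85 to 0.22 for Ighg2b and from -0.43 to 0.59 for Igkc. In the blood it ranged from -0.092 to 1.26 for Igha, from -0.068 to 0.11 for Ighd, from -0.50 to 1.66 for Ighg1, from -0.10 to 0.55 for Ighg2b, from -0.057 to 3.29 for Ighg3, from -0.95 to 1.05 for Pigr and from -0.17 to 0.59 for Mzb1. The difference of the UC effect between tissues ranged from -1.67 to 0.67 for Igha, from -3.06 to 0.13 for Ighg1, from -0.73 to 0.28 for Igkc, from -0.20 to 1.05 for Jchain and from -0.68 to 1.23 for Pigr. Between tissues Ighg3 ranged from -1.76 to 0.54.

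Shares and ratios moved in the same way between the labels. With a mouse left out, the UC minus control difference in the colon was -1.28 to 0.21 for log2 Ighd/Ighm, -0.035 to 0.23 for log2 Igkc over heavy chains and -0.46 to 0.19 for log2 Mzb1/Jchain. In the blood it was -0.613 to 2.55 points for the Igha share, -0.754 to 5.27 for the Ighm share and -0.0718 to 0.161 for the IgG share, and -0.39 to 0.29 for log2 Jchain over Igha plus Ighm, -0.098 to 0.28 for log2 Igkc over heavy chains and -0.54 to 0.54 for log2 Mzb1/Jchain. Between tissues log2 Ighd/Ighm was -0.57 to 0.17. The length of the secreted-form transcript, an alternative chosen after seeing the data, changed no call but moved sizes. The colon minus blood difference of the Ighd share went from -14.4 to -24.1 points and that of the Ighm share from -71.0 to -63.5. Ighd has 1900 bases of exon and 802 in that transcript, so its level per kb depends on the length used. With 3 mice per label no exact test could pass the threshold, and counts near 0 limit the rare IgG genes.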

Other observations

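The heavy-chain variable segments were more uneven in the colon than in the blood. These values were looked at after the comparisons above and were not tested. Of 113 Ighv segments, the most abundant took 6.46% to 16.5% of Ighv counts in a colon library and 5.19% to 9.28% in a blood library. The effective number of segments, which is the inverse of the summed squared shares, was 20.3 to 36.1 in the colon and 38.8 to 52.3 in the blood, with no overlap. The Ighv segments had 2677 to 16047 counts per colon library and 2456 to 6335 per blood library, and the deepest colon library, that of mouse 4, had the highest effective number of the colon. The leading segment was Ighv1-26 in 5 of 6 blood libraries, with Ighv9-3 in mouse 1. In the colon there were 5 different leading segments over 6 mice: Ighv2-9-1 in mouse 1 (15.4%), Ighv7-3 in mice 2 (16.5%) and 7 (10.2%), Ighv9-4 in mouse 4 (6.46%), Ighv1-72 in mouse 8 (8.66%) and Ighv3-6 in mouse 9 (13.3%). Similar segments share reads, so single segments are uncertain. In the colon of mouse 2, where Iglc3 led the lambda constant genes, Iglv1 took 95.4% of Iglv counts, and in that of mouse 1, where Iglc1 led, Iglv1 took 95.6%.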
